A study of Mus musculus with 4 samples.

Results

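Divergent coding gene pairs were followed across 4 ChIP-seq libraries of mouse embryonic stem cells. A pair consisted of 2 protein-coding genes of the GENCODE vM1 annotation on chromosomes 1 to 19 that lay on opposite strands, were transcribed away from each other, had gene-level transcription start sites (TSSs) at most 1 kb apart and did not overlap. The rule used positions and no measured value, and it found 789 pairs. They held 1562 genes, 6.98% of the 22367 protein-coding genes on chromosomes 1 to 19, X and Y. A gene in 2 pairs occurred 16 times, so 32 pairs shared a gene with another pair. Each pair was read in 1 window, from 1 kb inside one gene to 1 kb inside the other, and was set beside the promoters of the remaining 20805 coding genes, read from 1 kb before to 1 kb after the TSS.

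The mark H3K4me3, trimethylated lysine 4 of histone H3, was precipitated from cells given a pLKO.1 lentivirus with a Jarid1b short hairpin RNA (shRNA; 1 library) and from cells given the scramble control, LKO Scr (1 library). Both populations were selected with puromycin. The other 2 libraries were made with the antibody Jarid1b-DAIN from E14 cells with no shRNA named in their labels. All 4 came from E14TG2a.4, a feeder-independent embryonic stem cell line grown on gelatin with LIF, so that every comparison concerns 1 line.

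A bidirectional promoter drives 2 genes from 1 stretch of DNA, and many such promoters are CpG islands that serve genes used in nearly every cell. H3K4me3 is carried by nucleosomes beside the start sites of active and poised genes, and the nucleosomes are usually missing from the start site itself. Jarid1b, the product of Kdm5b, removes methyl groups from H3K4.

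After 1 read was kept per position and strand, the Jarid1b shRNA and scramble H3K4me3 libraries held 2635705 and 5158330 reads, and the Jarid1b libraries held 4336767 and 1602370. In the 789 pair windows, 313 of 1837 plus-strand positions of Jarid1b replicate 2 (17.0%) were also read in replicate 1, against a median of 0.381% at other offsets. The 2 Jarid1b files therefore shared fragments and count as 1 sample. They were still tested separately, and a call in both is no check between cultures. Each condition had 1 library, so the conditions could not be tested against each other, and all intervals are 95% intervals that cover counting error only. The stem cell genes Pou5f1, Sox2, Nanog and Dppa4 were called for H3K4me3 in both libraries by a Poisson test, and Zfp42, with 22 reads in the Jarid1b shRNA library against 116 in the scramble library, in the scramble library alone. Relative to the reads kept, Pou5f1 (126 reads against 401), Nanog (52 against 239), Dppa4 (20 against 73) and Zfp42 were lower in the Jarid1b shRNA library, and Sox2 (143 against 239) was higher. Their part in the results was not tested. In both libraries the promoters of Alb, Afp, Hbb-b1, Ins2, Gfap, Myh6 and Krt5 had 0 to 3 reads each. The Kdm5b promoter had 155 reads in the Jarid1b shRNA library and 153 in the scramble library, a log2 ratio of 0.99 (0.66 to 1.32) once scaled to the reads kept, which does not check the knockdown, since an shRNA acts on the transcript.

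The start sites of a pair were 1 to 987 bases apart, with a median of 141 bases and quartiles of 73 and 271. They were under 100 bases apart in 290 pairs and at most 300 bases apart in 622 pairs (78.8%). At the edge of the rule, Btf3l4/Txndc12 and Pdzd7/Sfxn3 were 987 bases apart and counted as pairs, while Nacc1/Trmt1, with 1004 bases, and Atg14/Gm6616, with 1008, did not. Pairs are named with the gene on the minus strand first.

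The DNA between the start sites is shown for 10 pairs on which the results turn. Mrps12/Sars2 and Sdhd/Timm8b are textbook pairs. Gm17649/Hoxc13, Klhl29/2810032G03Rik and Acvr1/Upp2 had some of the highest H3K4me3 ratios, and Mdh1b/Fastkd2 and Zwilch/Rpl4 some of the lowest. Hs2st1/Sep15 had the highest Jarid1b enrichment by the mean of both replicates, Uqcrh/Lrrc41 carried H3K4me3 mainly on one side in the Jarid1b shRNA library and on both sides in the scramble library, and Dnajc2/Psmc2 carried it on one side. The sequences are from the NCBIM37 (mm9) reference, plus strand, 5′ to 3′, from the base after the minus-strand gene's start to the base before the plus-strand gene's start. Capitals mark the GC box GGGCGG, bound by Sp1, the CCAAT box of NF-Y, the ETS core CGGAAG, the NRF1 core GCATGCG, the YY1 core ATGGCGG and the TATA box TATAAA on either strand, and adjoining or overlapping matches run together.
Mrps12/Sars2 (chr7:29526840-29527009): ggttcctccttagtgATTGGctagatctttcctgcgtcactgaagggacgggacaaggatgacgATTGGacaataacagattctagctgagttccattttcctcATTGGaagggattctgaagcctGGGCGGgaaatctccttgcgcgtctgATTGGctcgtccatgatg
Sdhd/Timm8b (chr9:50411955-50412005): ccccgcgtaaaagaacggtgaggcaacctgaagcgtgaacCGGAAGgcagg
Gm17649/Hoxc13 (chr15:102751252-102751533): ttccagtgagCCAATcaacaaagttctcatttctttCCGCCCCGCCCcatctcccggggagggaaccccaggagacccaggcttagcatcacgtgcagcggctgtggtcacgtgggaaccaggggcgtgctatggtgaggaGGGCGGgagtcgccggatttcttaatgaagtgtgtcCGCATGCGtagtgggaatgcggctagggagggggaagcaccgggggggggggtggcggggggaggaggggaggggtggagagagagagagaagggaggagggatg
Klhl29/2810032G03Rik (chr12:5382489-5382675): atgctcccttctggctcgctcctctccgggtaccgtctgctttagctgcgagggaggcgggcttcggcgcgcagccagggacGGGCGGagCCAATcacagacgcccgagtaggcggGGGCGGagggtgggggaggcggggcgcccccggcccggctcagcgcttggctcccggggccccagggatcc
Acvr1/Upp2 (chr2:58419569-58419708): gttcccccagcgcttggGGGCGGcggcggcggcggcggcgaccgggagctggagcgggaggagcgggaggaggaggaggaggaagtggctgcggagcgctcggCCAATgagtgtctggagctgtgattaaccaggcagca
Mdh1b/Fastkd2 (chr1:63776893-63777187): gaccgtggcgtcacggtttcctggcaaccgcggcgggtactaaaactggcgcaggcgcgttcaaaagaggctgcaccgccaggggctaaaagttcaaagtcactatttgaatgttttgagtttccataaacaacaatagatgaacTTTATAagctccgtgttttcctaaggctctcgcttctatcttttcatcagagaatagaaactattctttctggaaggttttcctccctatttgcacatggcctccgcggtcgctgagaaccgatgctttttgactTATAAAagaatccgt
Zwilch/Rpl4 (chr9:64020912-64021193): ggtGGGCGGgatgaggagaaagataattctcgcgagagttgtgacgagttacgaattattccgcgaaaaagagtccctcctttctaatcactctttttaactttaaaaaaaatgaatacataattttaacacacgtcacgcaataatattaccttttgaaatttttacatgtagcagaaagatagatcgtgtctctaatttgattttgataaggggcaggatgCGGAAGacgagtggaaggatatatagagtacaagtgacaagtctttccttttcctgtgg
Hs2st1/Sep15 (chr3:144233146-144233267): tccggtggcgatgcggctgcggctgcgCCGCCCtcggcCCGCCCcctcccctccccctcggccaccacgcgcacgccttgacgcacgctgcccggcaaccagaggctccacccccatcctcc
Uqcrh/Lrrc41 (chr4:115747677-115747873): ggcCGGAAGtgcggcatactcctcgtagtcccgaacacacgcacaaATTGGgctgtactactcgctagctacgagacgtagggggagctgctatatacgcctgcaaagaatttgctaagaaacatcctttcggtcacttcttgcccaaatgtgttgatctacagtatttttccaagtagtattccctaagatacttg
Dnajc2/Psmc2 (chr5:21291070-21291100): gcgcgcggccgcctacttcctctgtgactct

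The first sequence held 4 CCAAT letters and 1 GC box in 170 bases, so that NF-Y letters made up most of its 5 matches. The stretch between Gm17649 and Hoxc13 held 6 matches, to the GC box, the CCAAT box and the NRF1 core, and had a GC content of 63.5%. That between Klhl29 and 2810032G03Rik had a GC content of 74.9%, and that between Hs2st1 and Sep15 one of 77.9%. Among pairs with the lowest ratios, the GC content was 37.6% between Zwilch and Rpl4, 46.1% between Mdh1b and Fastkd2, which held 2 TATAAA matches, 53.7% between Mrpl50 and Zfp189 and 67.7% between Tmem209 and 1700025E21Rik. A match is a description of the letters and does not show a bound site.

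The same letters were counted from 250 bases before to 50 bases after every TSS. The 1562 genes in pairs had a median GC content of 62.7% there and the other 20805 genes one of 54.3%. Their median CpG ratio, observed over expected, was 0.852 in genes in pairs and 0.490 in other genes. CGGAAG occurred in 43.8% of genes in pairs and 18.2% of other genes, GCATGCG in 8.19% and 3.99%, ATGGCGG in 12.5% and 4.41%, and GGGCGG in 68.2% and 41.6%. TATAAA ran the other way, at 4.48% of genes in pairs and 14.1% of other genes. Partners share much of these windows where their starts are close, so the 1562 windows are not independent. With a median of 141 bases between starts, most windows of genes in pairs also took in the partner's start.

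Part of these differences went with CpG content. Among genes with a CpG ratio of at least 0.6, GGGCGG occurred in 72.7% of the 1356 genes in pairs and 72.7% of the 8747 other genes. CGGAAG remained more frequent in genes in pairs, at 47.7% against 31.8%, as did ATGGCGG at 13.8% against 7.98%. GCATGCG occurred in 8.92% (Wilson interval 7.52 to 10.6%) of these genes in pairs and 7.36% (6.83 to 7.93%) of these other genes, with overlapping intervals. CCAAT occurred in 42.7% of these genes in pairs and 36.3% of these other genes. TATAAA occurred in 3.10% of genes in pairs and 6.35% of other genes. Windows of genes in pairs often covered both partners' starts here too, and the part of this in the differences was not tested.

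Nearly all pairs carried H3K4me3. A window was called when its reads passed a one-sided Poisson test against the genome rate or, where higher, the rate in the 10 kb flanking it on either side, with Benjamini-Hochberg adjustment over all 21594 windows and a threshold of 0.05. In the Jarid1b shRNA library 750 of 789 pairs were called (95.1%, Wilson interval 93.3 to 96.4%), where 58.6% of all windows were called. In the scramble library 751 were called (95.2%, 93.5 to 96.5%), where 58.8% of all windows were called. A pair window covered the starts of both genes, so H3K4me3 beside either start could give a call. The window of any other promoter was set on its own start alone. The part of this in the difference from all windows was not tested. Both libraries called 744 pairs, the Jarid1b shRNA library alone 6, the scramble library alone 7 and neither library 32.

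The level per length was compared as RPM, the reads scaled to the library's total of reads kept, per kb. Pair windows had a median of 15.3 RPM per kb in the Jarid1b shRNA library and 15.9 in the scramble library. Other promoters had medians of 3.79 and 2.33 RPM per kb in the same libraries, a group that includes many windows with no call. Their windows also take in 1 kb upstream of the start. In other genes with a call, that 1 kb had a median of 2.66 RPM in the Jarid1b shRNA library and 2.13 RPM in the scramble library. The 1 kb into the gene had 17.1 and 11.8 RPM, against 15.4 and 16.5 RPM in called genes in pairs.

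The 32 pairs without a call in either library had a median of 3 reads in the Jarid1b shRNA library and 4.5 in the scramble library. The 8 with the lowest levels had 0 to 2 reads each in the Jarid1b shRNA library and 1 to 4 in the scramble library. Il11/Tmem190, with the cytokine interleukin 11, had 1 read in each library. Dnase2b/Uox, with urate oxidase of the liver, had 0 reads in the Jarid1b shRNA library and 4 in the scramble library. Plcz1/Capza3, with the sperm phospholipase C zeta and a sperm actin-capping subunit, had 1 read and 3 reads in the same libraries. Zfp558/Mbd3l1, Tmem176b/Tmem176a and Gml/Hemt1 were also among the 8, as were Gm10598/Gm10597 and Gm10594/4933409K07Rik. Gm10598/Gm10597 and Gm10594/4933409K07Rik had the same TSS distance of 387 bases and the same GC content of 50.5%, so reads of near-identical copies may have been dropped or split there.

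H3K4me3 stood in 2 peaks, 1 inside each gene, with a gap between the start sites. For the 279 marked pairs with starts under 100 bases apart, the summed profile peaked 175 bases from the midpoint on each side in both libraries. Peaks lay 225 bases out for starts 100 to under 200 bases apart. For starts 500 to 1000 bases apart they lay 475 and 625 bases out in the Jarid1b shRNA library and 575 and 775 bases out in the scramble library.

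**Figure D1:**
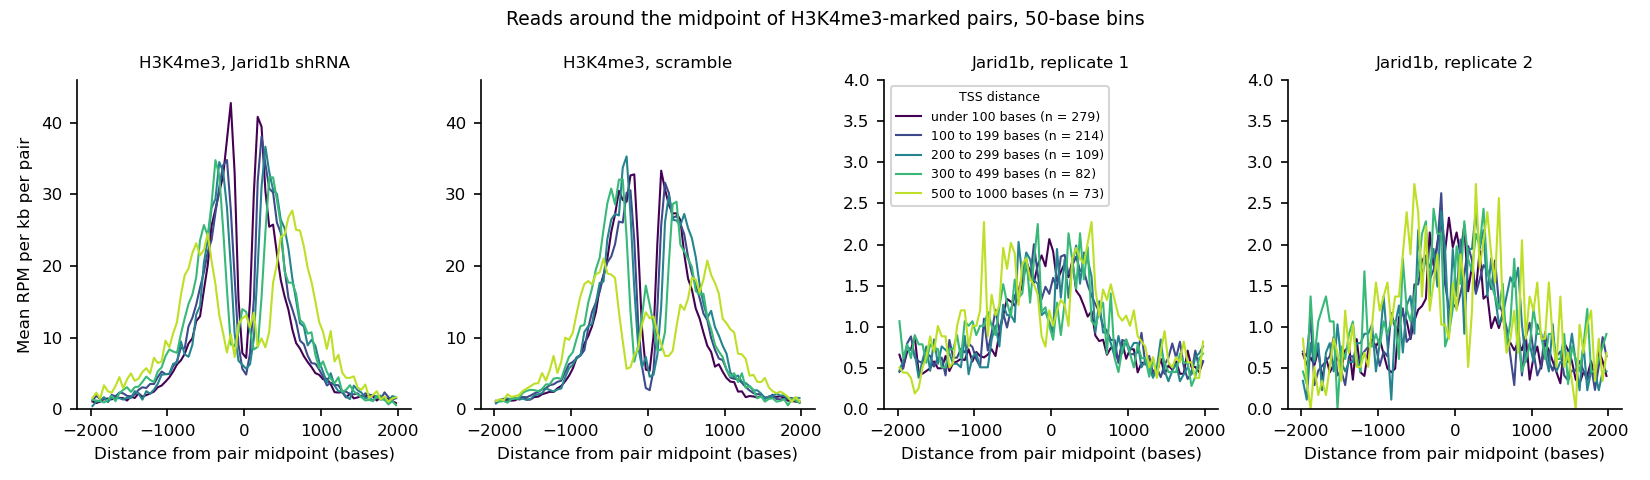
Mean RPM per kb per pair in bins of 50 bases against the distance from the midpoint of the 2 start sites, by library (panels) and TSS distance (lines), over pairs with H3K4me3 called in either library. The vertical scale of the Jarid1b panels is smaller. H3K4me3 falls to a minimum near the midpoint in each class under 300 bases, and the peaks move outwards with the TSS distance.

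The gap was measured as reads per kb between the start sites over reads per kb in the 1 kb into each gene, pooled over the 478 marked pairs at least 100 bases apart. This ratio was 0.510 (0.492 to 0.529) in the Jarid1b shRNA library and 0.456 (0.443 to 0.468) in the scramble library. At 100 to under 200 bases it was 0.319 (0.289 to 0.350) in the Jarid1b shRNA library and 0.193 (0.176 to 0.210) in the scramble library. At 300 to under 500 bases it was 0.674 and 0.687 in the same libraries, with overlapping intervals.

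The gap was thus shallower in the Jarid1b shRNA library at short distances, beyond counting error within these 2 libraries. The DNA between the start sites had a median GC content of 60.7% and the sides one of 53.0%, and the ratio of the libraries ran with GC content, whose part in this difference was not tested. By this pooled measure the Jarid1b libraries were not lower between the start sites, with ratios of 1.05 (0.971 to 1.13) in replicate 1 and 1.14 (1.01 to 1.28) in replicate 2. Single bins near the midpoint were low in wider pairs, at 0.385 of the peaks in replicate 1 for starts 300 to under 500 bases apart, on few reads per bin.

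The knockdown was compared with the scramble control as the log2 ratio of RPM, with an exact Clopper-Pearson interval, over windows called in either library with at least 20 reads in both together. A call of higher or lower needed a ratio of at least 2-fold with an interval that excluded 0. Of 754 pairs compared, 47 were called higher in the Jarid1b shRNA library (6.23%), where 24.9% of all 12535 windows compared were called higher. A further 26 pairs were called lower (3.45%), where 2.28% of all windows were called lower. The median log2 ratio was 0.01 over pairs and 0.47 over the 11781 other promoters, and 384 pairs lay above 0.

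The zero of this scale depends on the scaling. The median log2 ratio of all windows was 0.43, and the median of pairs relative to it was -0.42. Scaled to the median of all windows, 14 pairs were called higher and 111 lower. Scaled to background bins more than 5 kb from any TSS, 97 pairs were called higher and 4 lower. With the trend of those bins by GC content removed, 9 were called higher and 48 lower. The richest bins had a mean of 57.9% GC. Windows richer than that all had the same constant taken off, so no trend among them was removed. Whether more pairs were higher or lower therefore flipped with the scaling. The median log2 ratio of pairs minus that of other promoters was -0.46, which median and background scaling cannot move, and -0.42 with the GC trend removed.

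The ratio ran with GC content among pairs. Across the 754 pairs, Spearman's rho between the log2 ratio and the GC content of the window was 0.636, and it was 0.640 across the 11781 other promoters. Windows of 1 genome and 1 pair of libraries are not independent replicates. The 47 pairs called higher had a median GC content of 60.3% and the 26 called lower one of 49.3%. With 1 library per condition, an effect of the knockdown and a GC-dependent difference between library preparations cannot be told apart.

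**Figure D2:**
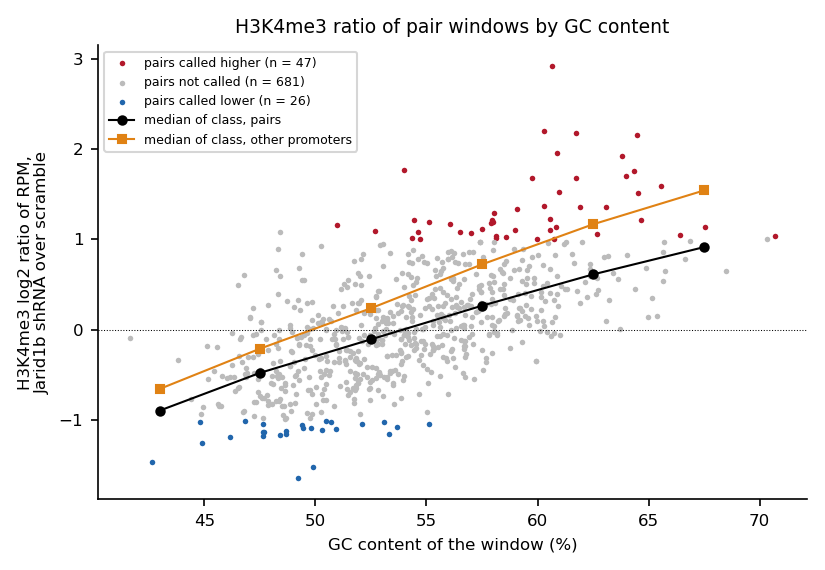
H3K4me3 log2 ratio of RPM, Jarid1b shRNA over scramble, against the GC content of the window for the 754 pairs compared (points), with the medians by GC class for pairs (black) and other promoters (orange). The ratio climbs with GC content in both, and the medians of pairs lie below those of other promoters in all 6 classes.

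At like GC content the median log2 ratio of pairs lay below that of other promoters. At 50 to 55% GC it was -0.11 over 273 pairs and 0.24 over 3807 other promoters. At 55 to 60% it was 0.26 over 228 pairs and 0.72 over 3468 other promoters. At 60 to 65% it was 0.61 over 74 pairs and 1.17 over 1613 other promoters.

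The difference narrowed when the H3K4me3 level was matched as well, a step added after the data were seen. In 19 classes of GC content and mean level together, holding 714 pairs, the median of pairs lay below that of other promoters in 16. The difference ran from -0.35 to 0.05, with a median of -0.10 on the log2 scale.

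The pairs with the highest ratios included 2 homeobox genes and a receptor. Gm17649/Hoxc13, with a transcription factor of hair and nail formation, had 89 reads (33.8 RPM) in the Jarid1b shRNA library against 38 reads (7.37 RPM) in the scramble library, a log2 ratio of 2.20 (1.63 to 2.78). The reads lay on the Hoxc13 side, with 82 reads against 28 (log2 ratio of that side 2.50), while the Gm17649 side had 5 against 10 (0.04).

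E130018O15Rik/Hmx1, with a homeobox factor of the eye and ear, had 60 reads (22.8 RPM) in the Jarid1b shRNA library against 26 reads (5.04 RPM) in the scramble library, a log2 ratio of 2.18 (1.49 to 2.90). Acvr1/Upp2, with a type I receptor for bone morphogenetic proteins and a uridine phosphorylase, had 128 reads (48.6 RPM) against 66 reads (12.8 RPM), a log2 ratio of 1.92 (1.48 to 2.38). In Acvr1/Upp2 both sides were higher, with log2 ratios of 1.63 for Acvr1 and 2.08 for Upp2. Atxn1/5033430I15Rik, with the gene of ataxin-1, had 34.5 RPM in the Jarid1b shRNA library against 10.7 RPM in the scramble library.

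The other 4 by this rule were Klhl29/2810032G03Rik, 1500002C15Rik/Gm5151, Sobp/9030612E09Rik and Clmn/4930408O17Rik, with log2 ratios of 2.15, 1.96, 1.75 and 1.68. Of the 47 pairs called higher, 29 (61.7%) held a gene known by a clone or predicted-gene symbol, and 209 of all 789 pairs (26.5%) did. Among the 26 called lower, 4 did.

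Of the 8 pairs with the lowest ratios, 2 held a gene of a cytosolic ribosomal protein. Rps28/Ndufa7, with a protein of the small ribosomal subunit and a subunit of respiratory complex I, had 61 reads (23.1 RPM) in the Jarid1b shRNA library against 343 reads (66.5 RPM) in the scramble library, a log2 ratio of -1.52 (-1.94 to -1.13). Zwilch/Rpl4, with a kinetochore protein and a protein of the large ribosomal subunit, had 86 reads (32.6 RPM) against 383 reads (74.2 RPM), a log2 ratio of -1.19 (-1.54 to -0.85). Bckdha/Exosc5, with a subunit of branched-chain ketoacid dehydrogenase and one of the RNA exosome, had 61 reads (23.1 RPM) against 267 reads (51.8 RPM), a log2 ratio of -1.16 (-1.59 to -0.76).

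Tmem205/Ccdc159 had the lowest ratio, with 15 reads (5.69 RPM) in the Jarid1b shRNA library against 92 reads (17.8 RPM) in the scramble library, a log2 ratio of -1.65 (-2.54 to -0.85). The remaining 4 were Mdh1b/Fastkd2, Tmem209/1700025E21Rik, Mrpl50/Zfp189 and Ppme1/C2cd3, with log2 ratios of -1.47, -1.26, -1.17 and -1.17. All 8 windows of this group had a GC content of 49.9% or less, and all 8 of the group with the highest ratios one of 59.7% or more.

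**Figure D3:**
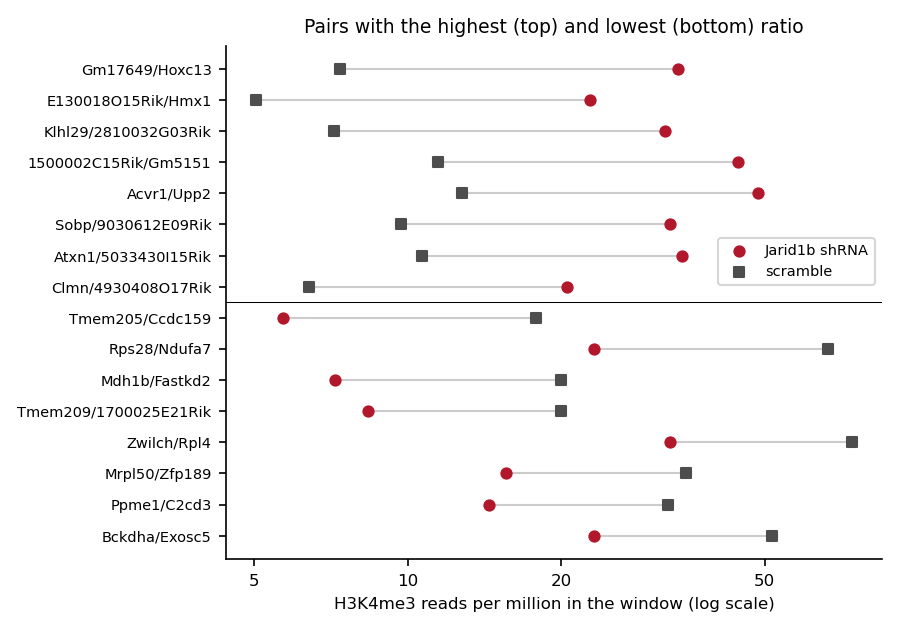
H3K4me3 RPM in the window (log scale) in the Jarid1b shRNA library (red circles) and the scramble library (grey squares) for the 8 pairs with the highest ratio (above the line) and the 8 with the lowest (below it), among pairs with at least 50 reads. The libraries differ most at Gm17649/Hoxc13, with 33.8 RPM against 7.37 RPM.

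The genes of pairs were also grouped by role, from lists of names and name prefixes. Genes of DNA repair and replication stood in pairs in 38 of 142 cases (26.8%), of RNA synthesis and processing in 62 of 265 (23.4%), and of mitochondrial ribosomes and respiration in 44 of 212 (20.8%). Developmental regulators stood in pairs in 5 of 321 cases (1.56%), and families of differentiated tissues in 3 of 1838 (0.163%). Of all coding genes, 6.98% stood in pairs.

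Counts of calls in these lists stand beside 6.23% higher and 3.45% lower over all pairs, and 24.9% and 2.28% over all windows. The 42 pairs with a mitochondrial gene had a median log2 ratio of -0.25, with 0 called higher and 3 lower, and the 157 mitochondrial genes outside pairs one of -0.23. Their values ran from -1.52 at Rps28/Ndufa7 to 0.73 at Atp5h/Kctd2, which holds a subunit of ATP synthase. Pairs with a gene of the ribosome or of translation had a median of -0.54 over 22 compared, with 0 higher and 5 lower, and the 151 such genes outside pairs one of -0.28. Of these 5, 2 were the ribosomal pairs described above, and others held Eif2b1, of translation initiation, and Rpl35a of the large subunit. The translation and mitochondrial lists shared pairs such as Rps28/Ndufa7.

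Pairs with a gene of DNA repair or replication had a median log2 ratio of -0.14 over 38, with 1 called higher and 1 lower. The higher one was Wrn/Purg, with the helicase of Werner syndrome, at 1.03 (0.61 to 1.45), and the lower one Rad54l/Pomgnt1, with a recombination factor, at -1.01 (-1.47 to -0.57). Pairs with a cell cycle gene had a median of -0.51 over 20, with 1 higher and 3 lower, against 0.22 over the 134 such genes outside pairs. The lower ones held the kinetochore genes Cenpl and Cenpk and the mitotic kinesin Kif20a. The medians of these 4 lists lay below the median of 0.43 over all windows, as did that of all pairs (0.01) and that of each other list except the developmental regulators.

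Pairs with a gene of the ubiquitin and proteasome list had a median log2 ratio of 0.24 over 28, with 0 higher and 1 lower, against 0.38 over the 189 such genes outside pairs. Pairs with a zinc finger gene had a median of -0.16 over 22, with 2 higher and 1 lower. Pairs with a gene of the chromatin list had a median of 0.03 over 12, with 0 higher and 1 lower. That list was made from name prefixes and took in Wdr53 and Wdr54, which share only a prefix with Wdr5. The collagen list took in Col4a3bp, a ceramide transfer protein, beside the 1 pair of collagen genes.

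All 5 pairs with a developmental regulator lay above 0, and 4 were called higher, where 70.4% of all windows lay above 0 and 24.9% were called higher. AA415398/Foxj3, with a forkhead factor, had 54.6 RPM in the Jarid1b shRNA library against 25.2 RPM in the scramble library, a log2 ratio of 1.12 (0.76 to 1.47). 5930416I19Rik/Foxm1, with a forkhead factor of the cell cycle, had 53.1 RPM against 26.0 RPM, a log2 ratio of 1.03 (0.68 to 1.38). Foxa3/Sympk, with a forkhead factor of liver and gut, stood at 1.01 (0.67 to 1.34), and Tcf19/Cchcr1 at 0.80 (0.33 to 1.27). The 228 developmental regulators outside pairs had a median of 1.46, with 157 called higher and 2 lower. All 5 pairs also lay above the median of 0.43 over all windows.

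Histone genes formed 14 pairs, of which 13 joined 2 histones, most often an H2A with an H2B gene. Their median log2 ratio was 0.02, with 0 called higher and 0 lower. Hist1h2ba/Hist1h2aa, the testis forms, had the fewest reads of the 14, with 30 in the Jarid1b shRNA library and 33 in the scramble library. These genes are near-identical copies, so reads could be placed at the wrong copy or dropped, and the values are uncertain.

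Of 19 textbook pairs, 10 met the rule in this annotation. All 10 were called in both libraries, as were 94.3% of all pairs. Sdhd/Timm8b, with a subunit of succinate dehydrogenase and a mitochondrial import chaperone, had 126 reads (47.8 RPM) in the Jarid1b shRNA library against 346 reads (67.1 RPM) in the scramble library, a log2 ratio of -0.49 (-0.79 to -0.19). Mcm4/Prkdc, with a replicative helicase subunit and the DNA-dependent protein kinase, had 105 reads (39.8 RPM) against 362 reads (70.2 RPM), a log2 ratio of -0.82 (-1.14 to -0.50). Wrap53/Trp53, with the gene of p53, had 54 reads (20.5 RPM) against 227 reads (44.0 RPM) and was called lower, at -1.10 (-1.56 to -0.67).

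Mrps12/Sars2, with a mitochondrial ribosomal protein and the mitochondrial seryl-tRNA synthetase, had 71 reads (26.9 RPM) in the Jarid1b shRNA library against 219 reads (42.5 RPM) in the scramble library, a log2 ratio of -0.66 (-1.06 to -0.26). Brca1/Nbr1, with a repair gene and an autophagy receptor, stood at -0.93 (-1.35 to -0.53). The intervals of Atm/Npat, Gart/Son, Pdcd10/Serpini1 and Col4a4/Col4a3 included 0. Col4a4/Col4a3, with 2 chains of basement membrane collagen, had the fewest reads, at 11 in the Jarid1b shRNA library and 19 in the scramble library.

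The 2 genes of a pair often carried unequal H3K4me3. Reads in the 1 kb into each gene were compared within a library, where depth and scaling cancel, and a pair was called one-sided when the sides differed at least 2-fold and the Clopper-Pearson interval of the share excluded equality. In the Jarid1b shRNA library 373 of 731 pairs with at least 20 reads were one-sided (51.0%), and in the scramble library 310 of 746 (41.6%). No background share stands beside these, since head-to-head genes farther apart also have 2 sides but were not called in this way. Over all pairs the plus-strand side held 50.2% of the reads in the Jarid1b shRNA library and 49.3% in the scramble library.

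The strong side was mostly the same gene in both libraries. Of 236 pairs one-sided in both, 234 leaned to the same gene and 2 to opposite genes. Another 134 pairs were one-sided in the Jarid1b shRNA library alone and 59 in the scramble library alone. One-sided pairs were 45.5% of those with starts under 100 bases apart in the Jarid1b shRNA library and 36.9% in the scramble library. At 500 to 1000 bases the shares were 65.2% and 65.3% in the same libraries.

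The weak side held more genes known by clone or predicted-gene symbols. In the Jarid1b shRNA library these were 94 of 373 genes on the weak side (25.2%), 27 of 373 on the strong side (7.24%) and 75 of 716 genes in pairs that were not one-sided (10.5%). In the scramble library they were 22.3%, 6.13% and 12.8% in the same order.

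Dnajc2/Psmc2, whose starts are 32 bases apart, had 116 reads on the side of Dnajc2, a ribosome-bound chaperone, and 0 on the side of Psmc2, an ATPase of the proteasome, in the Jarid1b shRNA library. In the scramble library the Psmc2 side had 4 of the pair's 204 window reads. Dram1/Gnptab had 0 reads on the side of Dram1, an autophagy regulator, and 74 on that of Gnptab, a lysosomal enzyme-targeting transferase, in the Jarid1b shRNA library, and 2 and 103 in the scramble library. In both pairs the starts lay under 100 bases apart and H3K4me3 stood beside one of them.

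Another one-sided pair joined a tissue gene to a widely used one. Tas1r1/Nol9 had 4 reads on the side of Tas1r1, a taste receptor, and 160 on that of Nol9, a nucleolar kinase of ribosomal RNA processing, in the Jarid1b shRNA library, and 2 and 213 in the scramble library. Abhd12/Gins1, Ccdc146/Fam185a, Gm10373/Ttc35, Syngr4/Tmem143 and Tmtc3/Cep290 were also among the most one-sided. In these 5 pairs the weak side had 0 to 3 reads in the Jarid1b shRNA library and 0 to 2 in the scramble library.

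**Figure D4:**
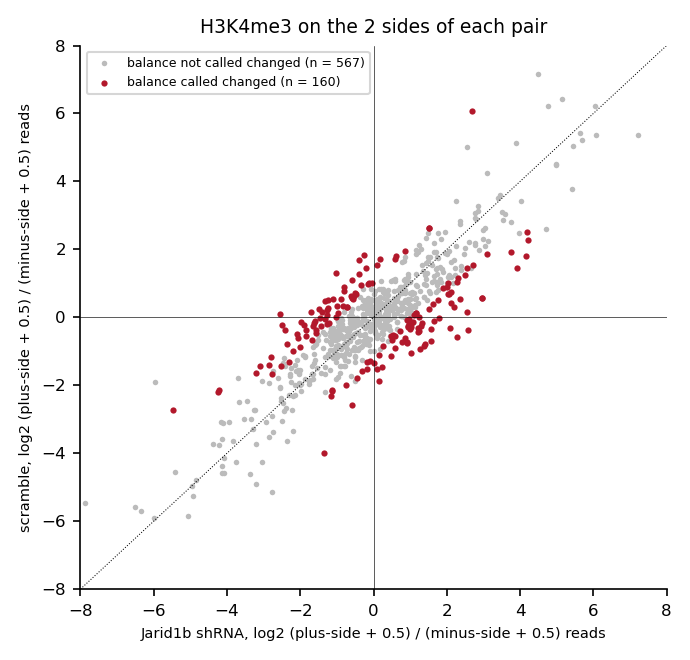
Log2 ratio of H3K4me3 reads on the plus-strand side over the minus-strand side, with 0.5 added to each count, in the Jarid1b shRNA library (horizontal) and the scramble library (vertical) for the 727 pairs with at least 20 reads in each library. Most points lie along the diagonal; the 160 pairs called as changed (red) lie off it on both sides.

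The balance of the sides was compared between the libraries as a log2 odds ratio of plus over minus side, Jarid1b shRNA over scramble, with a Woolf interval. It changed at least 2-fold with an interval excluding 0 in 160 of 727 pairs (22.0%). Towards the plus strand went 84 and towards the minus strand 76. Across the 727 pairs, Spearman's rho of the side ratios between the libraries was 0.803.

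The shift ran with GC content here too. In 145 of the 160 pairs it went to the side richer in GC, as the balance did, by any amount, in 521 of all 727 pairs (71.7%), and Spearman's rho between the balance change and the GC difference of the sides was 0.586 over 727 pairs. The side richer in GC was the stronger one in 602 of 727 pairs (82.8%) in the Jarid1b shRNA library and 501 (68.9%) in the scramble library. Where the sides differed by under 5 percentage points, the balance changed in 48 of 323 pairs (14.9%), and at larger differences in 112 of 404 (27.7%).

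At Uqcrh/Lrrc41 the side with more reads differed between the libraries. The side of Uqcrh, a subunit of respiratory complex III, had 22 reads and that of Lrrc41 134 in the Jarid1b shRNA library, against 123 and 94 in the scramble library. Its log2 odds ratio was 2.97 (2.21 to 3.72). Cryzl1/Itsn1, with the endocytic scaffold intersectin, had 22 and 108 reads in the Jarid1b shRNA library against 85 and 57 in the scramble library, a log2 odds ratio of 2.84 (2.03 to 3.66). Pdxdc1/Mpv17l had 84 and 14 reads against 73 and 78, at -2.64 (-3.56 to -1.71).

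The side with more reads was the same in both libraries in the other 3. Tomm6/Frs3, with a mitochondrial import subunit and an adaptor of FGF receptors, had 60 and 23 reads in the Jarid1b shRNA library against 215 and 13 in the scramble library, a log2 odds ratio of 2.63 (1.58 to 3.68). Fbxo9/Ick stood at -2.74 (-4.69 to -0.80). Syngr4/Tmem143 stood at -3.38 (-6.22 to -0.54), on 3 and 22 reads in the Jarid1b shRNA library against 1 and 100 in the scramble library.

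The partners' ratios were only weakly related. Over 654 pairs with enough reads on both sides, Spearman's rho between the 2 sides' log2 ratios was 0.223, and 58.6% had the same sign. For 182 head-to-head gene pairs more than 1 kb and up to 5 kb apart it was 0.0790, with 51.1% of the same sign. Counting error on each side lowers such a rho, by an amount that was not estimated. Neighbouring sides share the libraries and part of their base composition, and the difference between these groups was not tested.

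Jarid1b signal at pairs was weak. A pair was called when it passed the Poisson test in both Jarid1b libraries, and 100 of 789 were (12.7%, Wilson interval 10.5 to 15.2%), where 7.82% of all windows were. Since the 2 files share fragments, a call in both is not a replicated call. Signal beside either start of a pair could give a Jarid1b call, and the part of this in the share was not tested. Windows were also classed by mean H3K4me3 RPM of the whole window, which in a pair covers 2 starts. The share called for Jarid1b in pairs was below that in other promoters in each class from 10 RPM up. At 20 to 30 RPM it was 11.8% against 13.3%, and at 40 to 60 RPM 15.9% against 20.7%. Under 10 RPM it was 5.97% against 2.24%. Read separately, replicate 1 called 341 pairs and replicate 2 called 134, each including the 100 called in both, where 26.2% and 10.5% of all windows were called. The called pairs had 9 to 39 reads in replicate 1 and 6 to 18 in replicate 2, with medians of 16 and 8.

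Hs2st1/Sep15, with a heparan sulfate sulfotransferase and a selenoprotein of the endoplasmic reticulum, ranked first by the mean of the 2 replicates' enrichments, with 25 and 12 reads in replicates 1 and 2, 6.54 and 9.02 times the background rate (the genome rate or, where higher, that of the flanks). In replicate 1 alone Atxn1/5033430I15Rik stood higher, at 7.12 times that rate. Fhl4/AI597468 had 21 and 9 reads, 5.81 and 6.74 times that rate. 2610024G14Rik/Polr2b, with the second largest subunit of RNA polymerase II, had 15 and 12 reads, 4.29 and 7.75 times that rate. Fam192a/Rspry1, Klhl29/2810032G03Rik, Cdc27/Myl4, Zdhhc3/Exosc7 and Ccni/2010109A12Rik followed, with 10 to 17 reads in replicate 1 and 8 to 11 in replicate 2.

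Calls of Jarid1b ran with GC content. At 45 to 50% GC, 2.41% of pairs and 1.01% of other promoters were called, and at 60 to 65% GC 32.4% and 29.3%. The share was higher in pairs in the classes from 45 to 65% GC. Over 65% GC it was 35.7% in pairs and 45.7% in other promoters. With the background rate taken from bins of like GC content, 3 pairs remained, where 0.912% of all windows were called. They were E130018O15Rik/Hmx1, with 39 and 17 reads but 3.03 and 3.57 times a background raised by its flanks, Zfp319/AA960436, with 23 and 13, and Stap2/Mpnd, with 26 and 18. Stap2/Mpnd had 6 H3K4me3 reads in each library, and 84.1% of its Jarid1b reads lay within 1 stretch of 200 bases.

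**Figure D5:**
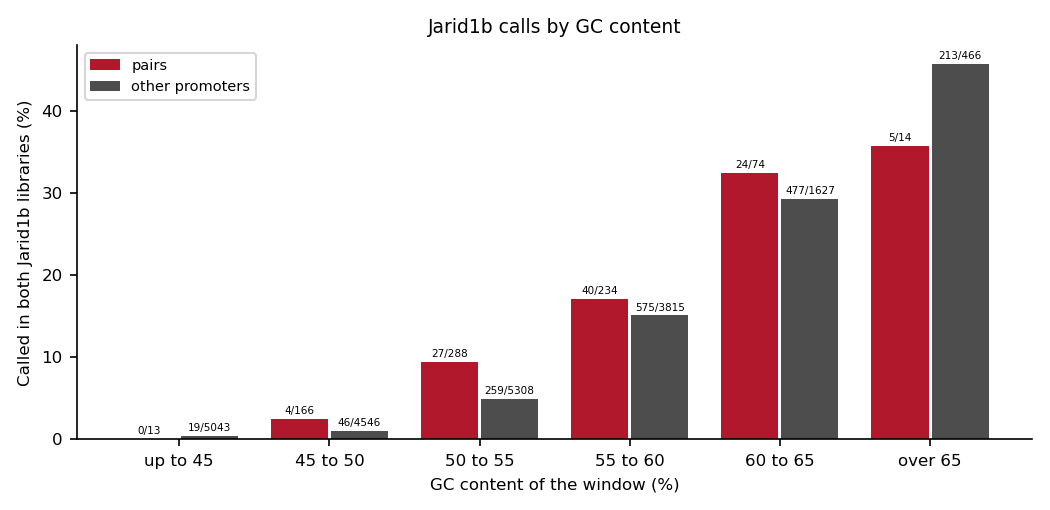
Percentage of windows called in both Jarid1b libraries by GC content of the window, for pairs (red) and other promoters (grey), with the number called and the number of windows above each bar. The share climbs from 0 of 13 pairs in the lowest class to 5 of 14 in the highest.

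Of the 100 pairs called for Jarid1b, 98 carried H3K4me3 in each library. This is near the share of all pairs, 95.1% in the Jarid1b shRNA library and 95.2% in the scramble library. The median H3K4me3 log2 ratio of the pairs called for Jarid1b was 0.25, with 12 of 98 called higher and 0 lower. Of all pairs compared, 6.23% were called higher and 3.45% lower, and of all windows 24.9% and 2.28%. The 656 pairs without a Jarid1b call had a median log2 ratio of -0.03. The median GC content was 56.7% in pairs called for Jarid1b, against 53.3% in pairs without a call. Jarid1b calls and GC content thus moved together, and their parts in the ratio cannot be told apart here. Cdc27/Myl4, with a subunit of the anaphase-promoting complex and an atrial myosin chain, was called for Jarid1b at 50.5% GC. It had 34.1 RPM of H3K4me3 in the Jarid1b shRNA library against 34.3 RPM in the scramble library.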

How the data were processed

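H3K4me3 and Jarid1b ChIP-seq reads of 4 libraries were analysed. The authors aligned the tags to mm9 with Bowtie, per the labels' protocols; its version is not stated in these sources. The deposited rows hold read coordinates, a unit the authors left as aligned positions, and the score column of the deposited files is 0 throughout. The labels also describe 1 match per position, MACS peaks and IgG normalization; peaks and IgG were not used here, and the deposited rows still repeated positions. Repeats made up 7.56% and 31.5% of the rows of the Jarid1b shRNA and scramble H3K4me3 libraries, and 15.3% and 7.69% of those of Jarid1b replicates 1 and 2.

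Repeats of a 5′ position on the same strand were dropped, and each read was moved 75 bases towards the fragment centre. Gene starts came from GENCODE vM1 on NCBIM37, the assembly of mm9. Counts, Poisson tests and intervals were computed with Python 3.11.15, numpy 2.4.6 and scipy 1.17.1, and tested on simulated data. The genome rate was 2.06 and 4.03 reads per 2 kb in the Jarid1b shRNA and scramble libraries, and 3.39 and 1.25 in Jarid1b replicates 1 and 2. RPM divides by reads kept. Reads of PCR-amplified DNA without molecular identifiers are not independent molecules, so intervals cover counting error only.

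Named pairs were the 8 with the highest and the 8 with the lowest ratio among those with at least 50 reads, the 8 with the highest Jarid1b enrichment, the 6 most one-sided in each H3K4me3 library, the 6 largest balance changes, up to 8 with the lowest H3K4me3, the textbook pairs, the extremes of each role list, and pairs at the distance limit. Some pairs and genes that these rules name are not reported here. The members and lists were chosen with earlier results of these data known. Pairs with a GC-adjusted Jarid1b call were named after their values were seen, as were the histone, forkhead, kinetochore and translation pairs that are not extremes of their lists.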

Additional observations from a re-analysis of the deposited data

How the results depend on the processing

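Under other settings, 61 recomputed values of the main comparisons were counted as kept and 26 as moved. Some of the 61 could not move, such as pairs minus other promoters under median and background scaling. Changes of side balance were counted as kept, though not of the same size. They were called in 160 of 727 pairs in the main setting, 211 of 731 with all reads kept and 204 of 712 with sides of 500 bases. H3K4me3 was called in 678 to 767 pairs in the 2 libraries throughout, the lowest counts coming from fewer pairs (starts at most 500 bases apart). Jarid1b calls went from 100 pairs to 17 at a threshold of 0.001 and 273 against the genome rate alone. They went to 3 against a background set by GC content up to 57.9%, and to between 134 and 341 with 1 replicate alone. Pairs called higher (47) became 91 with all reads kept, 79 with windows of 500 bases, 14 with median scaling, 97 with background scaling, 9 with the GC trend removed and 138 at 1.5-fold. Pairs called lower (26) became 111 with median scaling, 4 with background scaling, 48 with the GC trend removed and 108 at 1.5-fold. The median log2 ratio of pairs (0.01) became 0.15 with all reads, 0.13 with windows of 500 bases, -0.42 with median scaling, 0.25 with background scaling and -0.36 with the GC trend removed; the cause was not tested. The density between the start sites over that in the genes became 0.584 and 0.555 without the shift and 0.459 and 0.399 with starts at most 500 bases apart, in the Jarid1b shRNA and scramble libraries, and 0.442 with all reads in the scramble library. The median RPM 1 kb into genes in pairs over that of other genes was 2.79 in the Jarid1b shRNA library and 5.13 in the scramble library. With all reads it was 2.96 and 5.45. The other genes include many without a call. Among genes called in either library, the median was 15.4 RPM in pairs and 17.1 RPM outside them in the Jarid1b shRNA library. In the scramble library these medians were 16.5 and 11.8 RPM. Among the 16 named pairs, Clmn/4930408O17Rik lost its call with the GC trend removed. The pairs with the highest ratios all lay above 57.9% GC, where the trend taken off was a constant. Of the same 16, Mrpl50/Zfp189, Bckdha/Exosc5, Ppme1/C2cd3 and Zwilch/Rpl4 lost theirs with background scaling, and Zwilch/Rpl4 also with windows of 500 bases.

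No paired analysis was possible because each H3K4me3 condition has 1 library, and the groups share only replicate number 1. The Jarid1b values rest on few reads, with a median of 11 and 4 reads per pair window in replicates 1 and 2.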
